A study of Mus musculus with 14 samples.

Results

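The 9 genes described here code for receptors through which the ovary reads hormones, and they were taken by symbol from a table of 56748 genes. They are Fshr and Lhcgr (the gonadotropin receptors), Prlr (the prolactin receptor), Ptgfr (the prostaglandin F receptor), Esr1, Esr2 and Pgr (the estrogen and progesterone receptors), and Nr5a1 and Nr5a2. Nr5a1 and Nr5a2 are orphan nuclear receptors and Ptgfr binds a prostaglandin, so these 3 are not receptors for gonadotropins, prolactin or steroids in the strict sense. All 9 had a row in the table, and 8 of the 9 reached the level required for testing. Pgr did not, and its values are given without a test.

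All 14 libraries came from ovaries of female C57BL/6J mice of wild-type genotype. The 4 groups were control at day 7 (n = 3, libraries 10, 51 and 53), dextran sodium (DSS) at day 7 (n = 4, libraries 75, 80, 81 and 82), control at day 89 (n = 3, libraries R123, R124 and R126) and DSS at day 89 (n = 4, libraries R29, R38, R78 and R89). DSS is read here as dextran sulfate sodium, a polymer that inflames the mouse colon when given in drinking water. Day 7 is the end of the modelling period and day 89 follows a rest, so mice of day 89 were also older if all began at a like age. Age, rest and any difference in handling between the days cannot be told apart. The labels give neither DSS dose, age, cycle stage nor whether each library is 1 animal, and p-values therefore reflect variation among libraries, some of which may be technical. In every sentence below, values for a group follow the library order just given.

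Follicle-stimulating hormone acts through Fshr on granulosa cells, which surround the oocyte, and luteinizing hormone acts through Lhcgr on theca cells, on granulosa cells of large follicles and on the corpus luteum. In rodents prolactin, acting through Prlr, sustains the corpus luteum and its progesterone output, and prostaglandin F2alpha, acting through Ptgfr, brings about its regression. Estrogen acts in the follicle mostly through Esr2 in granulosa cells, while Esr1 is found in theca and stroma, and Pgr is made briefly by granulosa cells before ovulation. Nr5a1 (SF-1) and Nr5a2 (LRH-1) are transcription factors that switch on genes of steroid synthesis.

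Recovered depth ran from 15.26 to 18.51 M reads per library. Mitochondrial transcripts took between 9.96 and 14.2% of reads in control 10, control 53 and DSS 75, all of day 7, and between 0.479 and 4.04% in the other 11 libraries, and the first 3 are called mitochondria-rich below. Ovarian markers were present in every group. Levels are in FPKM (fragments per kilobase of gene, scaled to a total set for each library and so a level per length). The summed level of 12 luteal markers was 3334 to 4266 FPKM in control day 7, 2362 to 3746 in DSS day 7, 4993 to 6353 in control day 89 and 3799 to 6458 in DSS day 89. The 15 granulosa markers summed to between 1303 and 4082 FPKM over all libraries, and the 15 oocyte markers to 268 to 796 at day 7 and 55.4 to 288 at day 89. Although the labels' extraction text speaks of retinas, 13 of 16 retina markers stayed under 1 FPKM in every library and the list summed to 6.56 to 9.34 FPKM, mostly Rom1. Markers of oviduct and uterus summed to 12.9 to 32.9 FPKM, with 6 of 12 under 1 FPKM everywhere.

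The genes lie on 9 places of the GRCm38 genome, as matched by gene ID to the GENCODE M21 annotation, and all are protein coding. Fshr (chr17:88984952-89200675, minus strand) and Lhcgr (chr17:88716481-88791990, minus strand) are near each other on chromosome 17. Prlr is at chr15:10177238-10349180 (plus), Ptgfr at chr3:151796502-151837630 (minus), Esr1 at chr10:4611593-5005614 (plus), Esr2 at chr12:76120419-76177259 (minus) and Pgr at chr9:8899833-8968611 (plus). Nr5a1 is at chr2:38692656-38714542 (minus) and Nr5a2 at chr1:136842571-136960448 (minus). RefSeq promoter entries (GRCm38.p6) matched 8 of the 9 genes, all but Nr5a1. The 250 bases before the start site are shown for 4 genes: Lhcgr and Prlr, whose levels moved most alike of the receptors that varied widely, Fshr as the partner gonadotropin receptor, and Esr2, which shares a motif with Fshr. They read 5′ to 3′ on the gene's own strand, and capitals mark GGGCGG (the GC box, which Sp1 family factors can bind) or CACGTG (an E box).
Lhcgr, chr17:88792015-88792264, minus: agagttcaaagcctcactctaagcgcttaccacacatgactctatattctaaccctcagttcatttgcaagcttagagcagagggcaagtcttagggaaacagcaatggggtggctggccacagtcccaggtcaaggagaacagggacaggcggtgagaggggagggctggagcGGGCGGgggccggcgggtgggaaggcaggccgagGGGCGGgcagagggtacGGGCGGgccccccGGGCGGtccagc
Prlr, first start site, chr15:10176988-10177237, plus: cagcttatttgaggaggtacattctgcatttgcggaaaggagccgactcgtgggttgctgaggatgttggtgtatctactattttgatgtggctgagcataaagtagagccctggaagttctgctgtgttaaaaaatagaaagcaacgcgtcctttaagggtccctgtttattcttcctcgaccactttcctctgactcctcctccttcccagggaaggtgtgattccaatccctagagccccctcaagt
Fshr, chr17:89200676-89200925, minus: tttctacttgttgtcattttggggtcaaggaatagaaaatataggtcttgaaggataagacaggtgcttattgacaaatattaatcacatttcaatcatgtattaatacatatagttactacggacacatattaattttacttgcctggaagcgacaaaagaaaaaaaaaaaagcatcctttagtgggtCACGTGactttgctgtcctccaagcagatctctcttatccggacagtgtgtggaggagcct
Esr2, chr12:76177260-76177509, minus: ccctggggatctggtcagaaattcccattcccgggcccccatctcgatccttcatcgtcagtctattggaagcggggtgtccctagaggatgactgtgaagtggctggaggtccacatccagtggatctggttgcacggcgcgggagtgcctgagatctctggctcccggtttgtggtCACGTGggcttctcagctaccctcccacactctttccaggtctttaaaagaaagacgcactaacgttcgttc

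A set of 4 motifs was searched on both strands of these windows. Lhcgr held 4 GC boxes (GGGCGG), which began 12, 25, 42 and 76 bases before the start, while Ptgfr held 1 (30 bases) and Pgr held 1 (47 bases). Of 32851 windows of the same length, 32.7% hold at least 1. Fshr and Esr2 each held 1 E box (CACGTG), 61 and 72 bases before the start, against 6.02% of all windows. The palindrome TTCNNNGAA, a form that STAT5 can bind, was found at the second start site of Prlr (110 bases) and of Esr1 (188 bases), against 7.02% of windows. That share is per window, whereas Prlr had 3 windows and Esr1 had 2, and their other windows held none. The NR5A response element AAGGTCA was in none of the members' windows and in 4.08% of all windows. The searched motifs did not overlap one another, and a match describes letters only.

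Between DSS and control ovaries none of the 8 tested receptors passed the test at either day. At day 7 the largest differences were lower levels of Lhcgr, from 35.3 ± 5.14 FPKM in control to 15.7 ± 13.8 in DSS (SD, n = 3 and 4), and of Prlr, from 21.6 ± 3.001 to 10.4 ± 7.79. Within DSS ovaries, Lhcgr and Prlr rose from day 7 to day 89, Lhcgr 5.67-fold and Prlr 2.98-fold on the log2(FPKM + 1) scale. At day 7, 0 of 8 receptors were called with limma (adjusted p under 0.05) beside 0.0333% of the 18006 genes tested, and 2 of the 8, Lhcgr and Prlr, had an unadjusted p under 0.05 beside 16% of all genes. At day 89, 0 of 8 were called beside 0.00555% of genes, and 1 of 8, Fshr, had an unadjusted p under 0.05 beside 4.58% of genes. From day 7 to day 89 in control ovaries 0 of 8 were called beside 31.8% of genes, and none had an unadjusted p under 0.05 beside 43.3% of genes. In DSS ovaries 2 of 8 were called beside 21.4% of genes, so the share of receptors called, 2 in 8, is close to the background. The DSS effects of both days were not shown to differ for any receptor: 0 of 8 beside 0% of genes passed, and none of the 8 had an unadjusted p under 0.05 beside 8.45% of genes. voom, a second test on recovered reads, called the same numbers of receptors in these 5 comparisons.

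**Figure D1:**
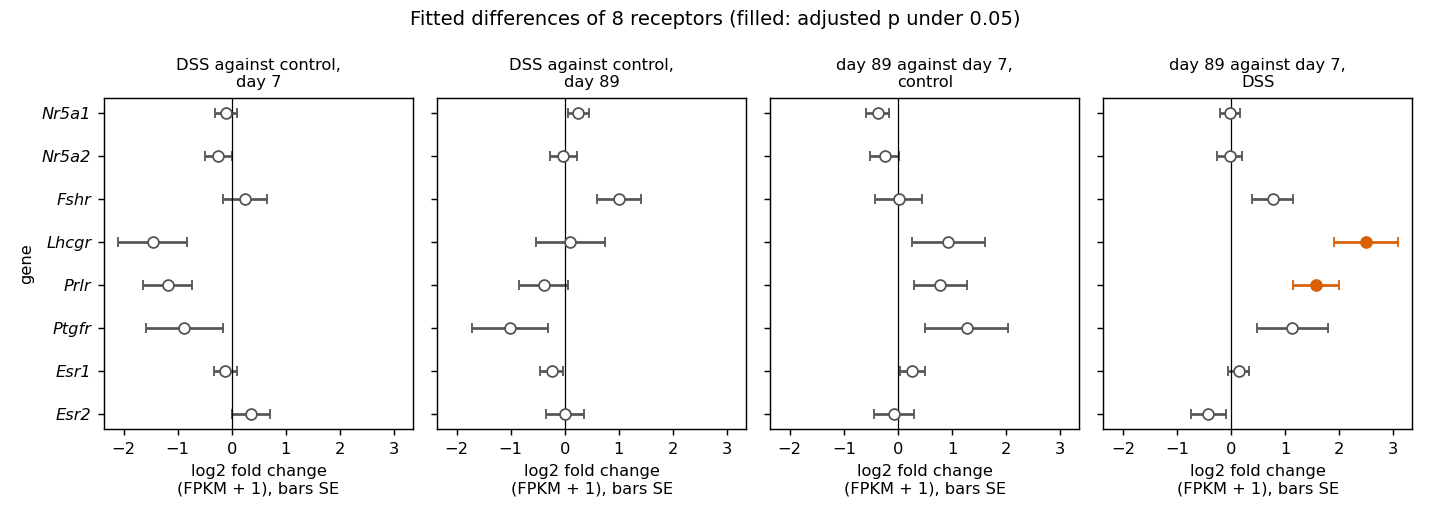
Fitted differences of the 8 tested receptors in 4 comparisons, as log2 fold change of FPKM + 1 on the horizontal axis with bars of 1 SE, and filled points where the adjusted p was under 0.05. The filled points are Lhcgr (2.50) and Prlr (1.58) in the comparison of day 89 with day 7 in DSS ovaries.

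As a count that needs no model, groups whose libraries do not overlap were found for 0 of 8 receptors between DSS and control at day 7 (12.1% of all genes) and for 0 of 8 at day 89 (8.29%). Between the days, 2 of 8 did not overlap in control ovaries (45% of genes), Nr5a1 being lower and Prlr higher in every day 89 library, and 0 of 8 in DSS ovaries (24.8%). The median log2 fold change of the 8 receptors was -0.18 for DSS at day 7, -0.01 for DSS at day 89, 0.14 for the days in control ovaries and 0.46 for the days in DSS ovaries. The median of all genes lay between -0.01 and 0.01 in each of these comparisons. The DSS day 7 libraries enter both the day 7 comparison and the comparison of days in DSS ovaries, so the low Lhcgr and Prlr levels there are 1 set of measurements used in both.

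By level, averaged over the 14 libraries, the receptors stood in the order Nr5a1 (96.5 FPKM), Nr5a2 (71.0), Lhcgr (53.8), Ptgfr (40.8), Esr2 (34.6), Prlr (25.2), Fshr (8.56), Esr1 (2.93) and Pgr (0.239). Nr5a1 was above Nr5a2 in 13 of 14 libraries. This order is that of the pooled mean: in control day 89 it began with Ptgfr (83.5 FPKM), Nr5a1 (81.1) and Lhcgr (74.4), ahead of Nr5a2 (67.7), and in DSS day 89 Lhcgr (90.5) was above Nr5a2 (66.6). In the middle of the order the ranks were not stable either, since Lhcgr was above Ptgfr in 7 of 14 libraries, Ptgfr above Esr2 in 8 and Esr2 above Prlr in 9. At the low end they were: Fshr was above Esr1 in 13 of 14 libraries, and Esr1 was above Pgr in 14 of 14. FPKM divides reads by gene length, from 2360 bases for Fshr to 15339 for Prlr, so these ranks between genes depend on the lengths used. The spread divided the receptors too. Over all libraries the coefficient of variation was 20% for Nr5a1, 22.1% for Nr5a2, 31.3% for Esr1 and 34.6% for Esr2, and 56.4% for Fshr, 61.4% for Prlr, 83.7% for Lhcgr and 88.1% for Ptgfr. When the 4 groups of a receptor were ranked by mean, the ranges of each neighbouring pair overlapped for all 9.

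**Figure D2:**
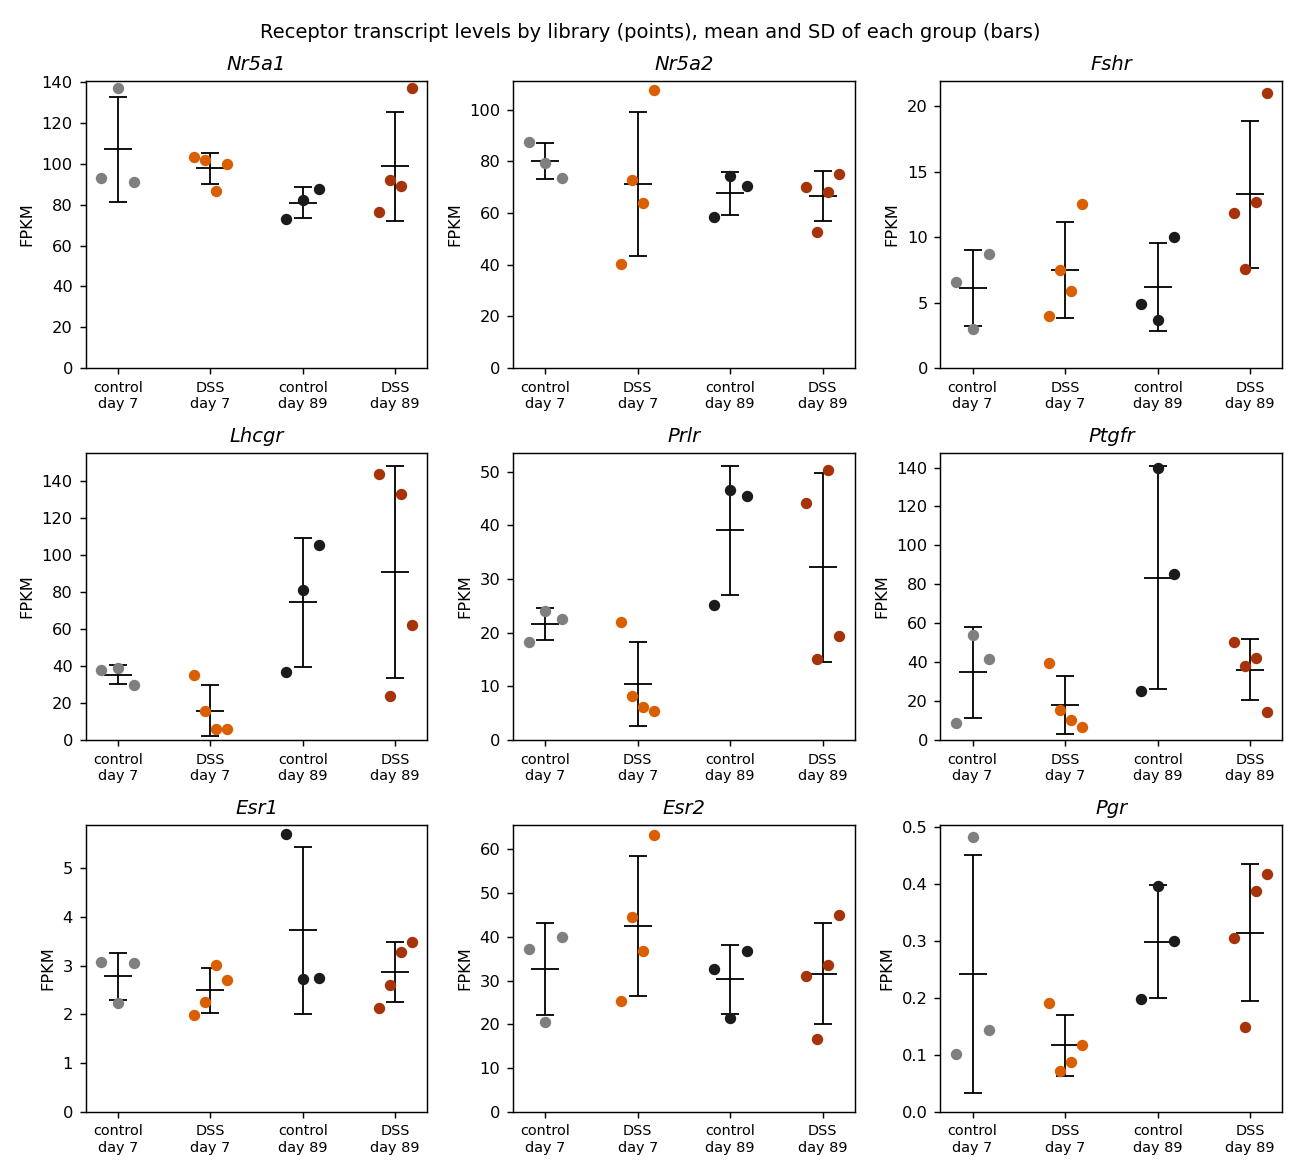
FPKM of each receptor (vertical axis, starting at 0) in every library of the 4 groups, with the mean and SD of each group as bars. In DSS day 7, library 75 stands at the control level for Lhcgr (35.3 FPKM) and Prlr (22.0 FPKM), and the other 3 libraries are lower.

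Lhcgr, the luteinizing hormone receptor, varied most between lowest and highest library apart from any group, 24.3-fold. In FPKM, the control day 7 libraries held 37.6, 38.9 and 29.4, and the DSS day 7 libraries 35.3, 15.6, 6.01 and 5.91. The groups overlapped through library 75, which was at the control level, while 80, 81 and 82 were below every control. At day 89 the controls held 36.5, 81.2 and 105 FPKM and the DSS libraries 144, 23.9, 133 and 61.9. The DSS day 89 libraries reached both above and below all 3 controls. The log2 fold change of DSS against control was -1.46 at day 7 (SE 0.64, adjusted p = 0.284) and 0.10 at day 89 (SE 0.64, adjusted p = 0.995). From day 7 to day 89 Lhcgr rose in DSS ovaries, from 15.7 ± 13.8 to 90.5 ± 57.3 FPKM (SD, n = 4 each, log2 fold change 2.50, SE 0.59, adjusted p = 0.0117), and 3 of 4 day 89 libraries were above all of day 7. In control ovaries the same difference was 0.94 (SE 0.68, adjusted p = 0.312). Bulk RNA cannot tell fewer cells of a type from less RNA per cell. The luteal marker sum moved with Lhcgr among the DSS libraries of day 7, at 3746 FPKM in library 75 against 3018, 2362 and 2482 in libraries 80, 81 and 82. It did not among those of day 89, at 6339, 6458, 6127 and 3799 FPKM, where R38 had the lowest Lhcgr and the highest luteal sum. Hsd3b1 gave the largest part of this sum, with a mean of 3194 of 5681 FPKM in DSS day 89. The luteal marker Akr1c18 reached 785 FPKM in R38 against a group mean of 238, so the rank of R38 leans on that gene. For DSS at day 7, 10 of 12 luteal markers had a log2 fold change below 0 (50.6% of all genes were above 0). Of these 12, limma and voom called 0, and 5 had an unadjusted p under 0.05 with limma beside 16% of all genes. Other cell types moved too: 8 of 10 endothelial and 8 of 10 surface epithelium markers were below 0. Above 0 were 15 of 15 oocyte, 10 of 10 macrophage, 5 of 5 tested erythrocyte (median log2 fold change 1.86) and 10 of 15 granulosa markers. Between the days in DSS ovaries, beside the 21.4% of all genes called, 5 of 12 luteal, 1 of 11 theca and interstitial, 3 of 10 stromal, 3 of 10 endothelial and 3 of 10 macrophage markers rose. Over the same days 14 of 15 oocyte markers (median log2 fold change -1.62) and 8 of 10 surface epithelium markers (median -1.28) fell, and of 15 granulosa markers 1 rose and 3 fell. Of 5 erythrocyte markers tested 1 fell (median -1.61). These counts stand beside the rise of Prlr too. The part of these markers in either result was not tested.

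Library 75 is also the DSS library that is mitochondria-rich. Among the mitochondria-rich libraries (75 against controls 10 and 53) the log2 difference of Lhcgr at day 7 was 0.08, and among the others (80, 81 and 82 against control 51) it was -2.10. Each of these has 1 library on 1 side. Without library 75 the log2 fold change was -1.96 (adjusted p = 0.0668), and the comparison of days in DSS ovaries gave 2.995 (adjusted p = 0.00586).

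Prlr, the prolactin receptor, resembled Lhcgr at day 7. At day 7 the controls held 18.3, 24.1 and 22.6 FPKM, and the DSS libraries 22.0, 8.26, 6.05 and 5.41. Again library 75 lay among the controls and the other 3 below all of them. At the later day the controls held 25.2, 46.6 and 45.4 FPKM and the DSS libraries 44.1, 15.0, 50.4 and 19.4. The DSS day 89 libraries lay apart, with R29 and R78 near the higher controls and R38 and R89 below every control. The DSS effect was -1.19 on the log2 scale at day 7 (SE 0.46, adjusted p = 0.239) and -0.39 at day 89 (SE 0.46, adjusted p = 0.943). Without library 75 the day 7 difference passed the test (-1.59, adjusted p = 0.0333), and 1221 genes passed in place of 6, so that 1 library sets this call. Library 75 is the only mitochondria-rich DSS library, so without it such libraries (10 and 53) remain in control alone. That fit cannot tell DSS from mitochondrial share. Among mitochondria-rich libraries the day 7 difference was 0.11, and among the others -1.74. Prlr rose in DSS ovaries between the days by 1.58 on the log2 scale (SE 0.42, adjusted p = 0.0202), from 10.4 ± 7.79 to 32.2 ± 17.6 FPKM (SD, n = 4 each). That call was lost without library 81, 82, R29 or R78 (adjusted p between 0.0513 and 0.0671), with no filter on low values (0.0503) and in a fit of the DSS libraries alone (0.0504). In control ovaries every day 89 library was above every day 7 library, by 0.78 (SE 0.49, adjusted p = 0.236).

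Ptgfr, which transmits the luteolytic signal of prostaglandin F2alpha, had the largest relative spread. The day 7 controls held 8.74, 53.8 and 41.8 FPKM, and the DSS libraries 39.5, 15.1, 10.1 and 6.78. Here a control, library 10, lay among the low DSS libraries. By day 89 the controls held 25.4, 140 and 85.2 FPKM and the DSS libraries 50.1, 38.2, 42.3 and 14.2. The group means at day 89 were 83.5 ± 57.2 in control and 36.2 ± 15.5 in DSS (SD, n = 3 and 4), and the ranges overlapped. The log2 fold change of DSS was -0.88 at day 7 (SE 0.71, adjusted p = 0.569) and -1.01 at day 89 (SE 0.71, adjusted p = 0.924). At day 7 the difference was 0.99 among mitochondria-rich libraries and -2.29 among the others. Between the days Ptgfr gave 1.27 in control (SE 0.76, adjusted p = 0.216) and 1.14 in DSS ovaries (SE 0.66, adjusted p = 0.227). Single libraries moved these values by more than 1.5 times without any call. With 1 library left out, the day 7 difference ran from -1.65 (without control 10) to -0.41 (without control 51), and that of day 89 from -1.70 (without control R123) to -0.49 (without control R124). The difference between the days in control ovaries ran from 0.50 (without control 10) to 1.96 (without control R123).

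Fshr, the follicle-stimulating hormone receptor, had a higher mean in DSS than in control at both days, without passing the test. At day 7 the controls held 6.60, 3.002 and 8.73 FPKM and the DSS libraries 3.96, 7.47, 5.89 and 12.5. The log2 fold change was 0.25 (SE 0.41, adjusted p = 0.801). These groups lay over one another, and the difference was -0.79 among mitochondria-rich libraries and 1.21 among the others. At day 89 the controls held 4.86, 3.68 and 10.04 FPKM and the DSS libraries 11.8, 7.57, 12.7 and 20.998. Of the 4 DSS libraries 3 were above every control, and R38 was between them. Mean levels were 6.19 ± 3.38 in control and 13.3 ± 5.62 in DSS (SD, n = 3 and 4), and the log2 fold change was 1.01 (SE 0.41, unadjusted p = 0.0278, adjusted p = 0.924). Its rank by p was 404 of 18006 genes. The summed granulosa markers at day 89 ran from 2053 to 2781 FPKM in control and from 2194 to 4082 in DSS. The highest sum was in R89, the library with the highest Fshr. Inha gave the largest part of that sum, with a mean of 1593 of 2829 FPKM in DSS day 89. Of the 15 granulosa markers, 7 had a log2 fold change of DSS above 0 at day 89 and 8 below (median -0.024). None of them had an unadjusted p under 0.05 with limma. The part of these markers in the result was not tested.

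By FPKM Esr2 was the main estrogen receptor transcript, at 34.6 over all libraries against 2.93 for Esr1. Part of this gap comes from the gene lengths used, 3368 bases for Esr2 and 13661 for Esr1. Recovered reads ran from 979 to 4060 per library for Esr2 and from 366 to 1428 for Esr1. At day 7 Esr2 was at 37.2, 20.49 and 39.9 FPKM in control and 25.4, 44.5, 36.8 and 63.3 in DSS. At day 89 it was at 32.7, 21.5 and 36.8 FPKM in control and 31.1, 16.7, 33.6 and 44.9 in DSS. Groups overlapped at both days, and the DSS effect on the log2 scale was 0.36 (SE 0.35, adjusted p = 0.654) and 0.01 (SE 0.35, adjusted p = 0.999). Among mitochondria-rich libraries the day 7 difference was -0.585 and among the others 1.16. Esr1 was at 3.08, 2.22 and 3.05 FPKM in control day 7 and 1.99, 2.25, 3.01 and 2.71 in DSS day 7. At day 89 it was at 5.71, 2.72 and 2.74 FPKM in control and 2.14, 2.60, 3.28 and 3.48 in DSS. Apart from control R123, each library lay between 1.99 and 3.48 FPKM. The DSS effect was -0.12 at day 7 (SE 0.21, adjusted p = 0.822) and -0.24 at day 89 (SE 0.21, adjusted p = 0.928).

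Pgr, the progesterone receptor, was at the edge of detection. In FPKM it was at 0.101, 0.481 and 0.143 in control day 7 and 0.191, 0.0710, 0.0866 and 0.117 in DSS day 7. At day 89 it was at 0.198, 0.396 and 0.300 in control and 0.304, 0.148, 0.387 and 0.417 in DSS. These levels rest on 11 to 76 recovered reads per library, and the groups overlap in each comparison of DSS with control. In DSS ovaries 3 of 4 libraries of day 89 were above all of day 7.

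Nr5a1 and Nr5a2, the steroidogenic nuclear receptors, had the highest mean FPKM and the lowest coefficients of variation when all 14 libraries were pooled. Nr5a1 was at 93.0, 137 and 91.1 FPKM in control day 7 and 103, 102, 86.7 and 100.02 in DSS day 7. At day 89 it was at 73.1, 82.3 and 87.8 FPKM in control and 76.2, 92.2, 89.1 and 137 in DSS. Apart from control 51 and DSS R89, both at 137, each library lay between 73.1 and 103 FPKM. Its DSS effect was -0.10 at day 7 (SE 0.20, adjusted p = 0.828) and 0.25 at day 89 (SE 0.20, adjusted p = 0.924). All control day 89 libraries were below all control day 7 libraries, by -0.37 on the log2 scale (SE 0.21, adjusted p = 0.188). Nr5a2 was at 87.4, 79.3 and 73.5 FPKM in control day 7 and 40.5, 72.6, 63.8 and 108 in DSS day 7. At day 89 it was at 58.4, 74.3 and 70.3 FPKM in control and 70.3, 52.7, 68.2 and 75.3 in DSS. DSS day 7 held both the lowest and the highest Nr5a2 library, 75 and 82. The effect of DSS was -0.25 at day 7 (SE 0.25, adjusted p = 0.660) and -0.03 at day 89 (SE 0.25, adjusted p = 0.999). At day 7 the Nr5a2 difference was -0.97 among mitochondria-rich libraries and 0.000706 among the others.

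Ratios within a library were compared for 3 related pairs in 4 comparisons, since a factor that scales a whole library cancels in a ratio. The ratio of Lhcgr to Fshr was 5.70, 12.96 and 3.37 in control day 7 and 8.91, 2.09, 1.02 and 0.472 in DSS day 7. In library 82 Fshr was therefore the higher of the pair by FPKM, while in each control Lhcgr was. By recovered reads Lhcgr was the higher in library 82 too, at 861 against 563. Which gene is higher there thus depends on the gene lengths used, 7645 bases for Lhcgr and 2360 for Fshr. On the log2 scale the mean ratios were 2.65 ± 0.98 and 0.79 ± 1.80 (SD, n = 3 and 4), a difference of -1.86 (two-sided exact permutation p = 0.171). With 1 library left out it ran from -2.65 (without 75) to -1.24 (without 82). At day 89 the ratio was 7.51, 22.05 and 10.51 in control and 12.14, 3.15, 10.48 and 2.95 in DSS, a log2 difference of -1.04 (exact p = 0.257). DSS ovaries of day 89 were 1.76 above those of day 7 (exact p = 0.114), or 2.55 (exact p = 0.0286) without library 75. Esr1 to Esr2 was -3.50 ± 0.27 in control and -4.03 ± 0.46 in DSS at day 7 (log2, SD, n = 3 and 4, exact p = 0.229), so Esr2 was above Esr1 in each of these 7 libraries. Nr5a2 to Nr5a1 was -0.40 ± 0.36 and -0.54 ± 0.60 (log2, exact p = 0.771). Over the 12 tests no adjusted p was under 0.514, and the smallest p possible was 0.0286, or 0.1 between the days in control ovaries (3 against 3).

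**Figure D3:**
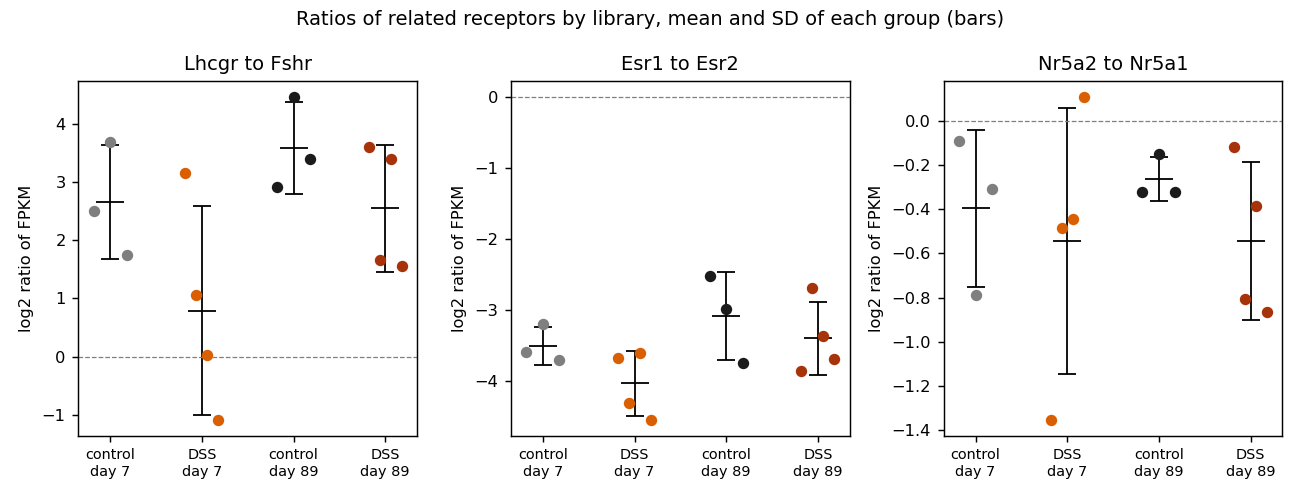
Log2 ratio of FPKM (vertical axis) of Lhcgr to Fshr, Esr1 to Esr2 and Nr5a2 to Nr5a1 in every library, with the mean and SD of each group as bars and a dashed line at equal levels. The Lhcgr to Fshr ratio ran from -1.08 to 3.16 in DSS day 7, and Esr1 stood below Esr2 in all 14 libraries.

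Profiles over the 14 libraries, each centred on its own mean of log2(FPKM + 1), were compared by their root mean square difference, as a description without a test. Among members that varied widely, Lhcgr and Prlr were most alike (0.496 log2 units, against an own spread of 1.33 and 0.955). Prlr and Ptgfr came next (0.690), and Lhcgr stood far from Fshr (1.39) and Esr2 (1.56). Of 12582 genes compared, the nearest to Lhcgr were Prlr and Scarb1 (0.525), the lipoprotein receptor that supplies cholesterol. The nearest to Prlr were Cyp11a1 (0.285), which makes the first step of steroid synthesis, and Acsl4 (0.386), a fatty acid ligase. Ptgfr was nearest to Nrcam (0.399), a cell adhesion molecule, and Tnfrsf9 (0.495), a receptor of the tumour necrosis factor family. Fshr was nearest to the potassium channel gene Kcnq5 (0.317) and to Mug2 (0.350). For Esr2 the nearest were Arhgap28 (0.216) and Metrnl (0.231), and for Esr1 Sulf1 (0.144) and Lepr (0.161), the leptin receptor. Nr5a1 was nearest to St3gal5 (0.135) and Impdh1 (0.143), and Nr5a2 to Spag5 (0.187) and Adat1 (0.198). Pgr, nearest to Usp47 (0.0882) and Cluh (0.0952), has an almost flat profile on this scale because its values are small. All these values share the same libraries and depth.

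**Figure D4:**
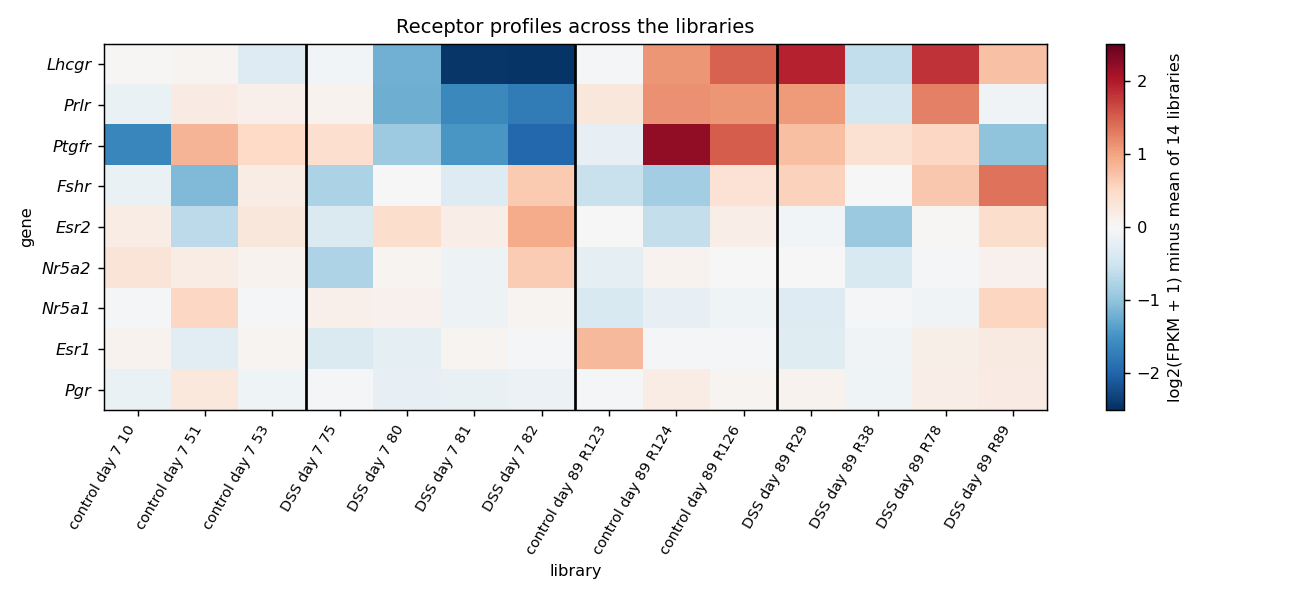
Log2(FPKM + 1) of each receptor (rows) in each library (columns), as the difference from the receptor's own mean over 14 libraries, in colour, with lines between groups. Lhcgr and Prlr are lowest in DSS 81 and 82 of day 7, with Lhcgr at 6.01 and 5.91 FPKM, and the rows of Nr5a1, Esr1 and Pgr are pale.

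Downstream of the gonadotropin receptors, 29 genes of cyclic AMP signalling were tested, none of which was called for DSS at either day (6 and 2 had an unadjusted p under 0.05). Their median log2 fold change was -0.02 at day 7 and -0.06 at day 89. At day 7 the smallest p-values were for the cyclic AMP sensor Rapgef3 (-0.45, adjusted p = 0.170) and for Gnas, the stimulatory G protein (0.78, adjusted p = 0.204). At day 89 they were for the adenylyl cyclases Adcy3 (-0.48) and Adcy7 (0.47, adjusted p = 0.924 for both). From day 7 to day 89 in control ovaries 6 of 29 rose and 2 fell, beside 31.8% of all genes called. Among them were Adcy3 (2.21, adjusted p = 0.000181), Adcy9 (2.87, 0.000341), Gnas (1.84, 0.000934) and the arrestin Arrb1 (0.72, 0.00830). In DSS ovaries 6 of 29 rose and 1 fell over the same time, beside 21.4% of all genes called. Adcy3 (1.36, adjusted p = 0.00150), Adcy9 (1.96, 0.00212) and Gnas (1.06, 0.0124) were among those that rose, and Rapgef4 (-0.97, 0.00663) was the one that fell. Gnas overlaps other transcripts of its locus, and the strand handling of its counts is not stated in the labels.

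Of 17 genes that respond to gonadotropins, 0 were called for DSS at day 7 or day 89 (4 and 0 had an unadjusted p under 0.05). At day 7, 13 of 17 had a log2 fold change below 0, the median being -0.20. Star, which moves cholesterol into mitochondria, was lower in all 4 DSS day 7 libraries than in every control, at 39.2 ± 3.96 against 158 ± 66.6 FPKM (SD, n = 4 and 3, log2 fold change -1.91, SE 0.43, adjusted p = 0.0885). Cyp11a1 stood at 462 against 832 FPKM (-1.17, adjusted p = 0.235). At day 89 the smallest p-values belonged to the growth factor Ereg (-0.28) and to Tnfaip6 (-0.33, adjusted p = 0.924 for both). Between the days 0 of 17 were called in control ovaries beside 31.8% of all genes (1 at an unadjusted p under 0.05), with Cebpb (-0.63, adjusted p = 0.0820) and Ccnd2 (0.54, 0.166) first by p. In DSS ovaries 3 of 17 rose, beside 21.4% of all genes called: Star (2.27, adjusted p = 0.00319), Cyp11a1 (1.60, 0.0164) and the activin subunit Inhba (2.39, 0.0363).

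In the prolactin pathway 18 genes were tested and 0 were called for DSS at day 7 or day 89 (4 and 2 at an unadjusted p under 0.05). First by p at day 7 were Socs5 (-0.38, adjusted p = 0.239), of the family that restrains cytokine signals, and the cell cycle inhibitor Cdkn1b (-0.62, 0.281). At day 89 Jak2, the kinase bound to the receptor, gave -0.32 and the phosphatase Ptpn6 0.98 (adjusted p = 0.924 for both). In control ovaries 4 of 18 rose between the days, beside 31.8% of all genes called. They were the adaptor Shc1 (0.76, adjusted p = 0.00662), Jak2 (0.61, 0.0105), the kinase Src (0.50, 0.0213) and the phosphatase Ptpn11 (0.77, 0.0486). In DSS ovaries 4 of 18 rose as well, which is close to the 21.4% of all genes called. They were Cdkn1b (1.01, adjusted p = 0.0136), the transcription factors Stat5b (0.70, 0.0260) and Stat5a (1.03, 0.0306), and Shc1 (0.50, 0.0360).

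Prostaglandin F synthesis and signalling was represented by 19 tested genes, 0 of them called for DSS at either day (3 and 3 at an unadjusted p under 0.05). At day 7 Plcb3, a phospholipase coupled to the receptor, gave -0.41 (adjusted p = 0.222) and Pla2g4a, which frees arachidonic acid, 0.58 (0.292). At day 89 Plcb1 gave -0.37 and Ptgfrn, a regulator of the receptor, -0.42 (adjusted p = 0.924 for both). Between the days 5 of 19 genes rose in control ovaries, beside 31.8% of all genes called. They included the G proteins Gna11 (1.00, adjusted p = 0.000602) and Gnaq (1.02, 0.0157), Ptgfrn (0.83, 0.00391) and the transporter Abcc4 (0.80, 0.00917). In DSS ovaries 4 of 19 rose, close to the 21.4% of all genes called: Gna11 (0.52, adjusted p = 0.0127), Gnaq (0.85, 0.0280), Plcb3 (0.46, 0.0328) and Ptgfrn (0.49, 0.0364).

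Among 20 other steroid and nuclear receptors 0 were called for DSS at day 7 or day 89 (4 and 1 at an unadjusted p under 0.05). Paqr7, a membrane progesterone receptor (-0.40, adjusted p = 0.164), and the estrogen-related receptor Esrra (-0.44, 0.211) were first by p at day 7. The retinoic acid receptor Rarg (0.36) and Paqr6 (0.30) were first at day 89 (adjusted p = 0.924 for both). In control ovaries 3 of 20 fell between the days, beside 31.8% of all genes called: Paqr6 (-0.91, adjusted p = 0.0105), the progesterone binding protein Pgrmc1 (-0.58, 0.0142) and Rxrb (-0.50, 0.0163). In DSS ovaries, beside 21.4% of all genes called, Paqr6 (-0.87, adjusted p = 0.0110) and Esrrb (-0.61, 0.0123) fell and Paqr7 rose (0.49, 0.0115).

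Of 23 cofactors and chaperones of steroid receptors, 0 were called for DSS at either day (3 and 1 at an unadjusted p under 0.05). The chaperone Fkbp4 (-0.49, adjusted p = 0.182) and the corepressor Safb (-0.41, 0.266) were first by p at day 7, and Hsp90aa1 (-0.53) and Rbfox2 (-0.31) at day 89 (adjusted p = 0.924 for both). Between the days 5 of 23 rose and 3 fell in control ovaries, beside 31.8% of all genes called. The acetyltransferase Ep300 (1.26, adjusted p = 0.000934), the coactivator Ncoa1 (0.98, 0.00211) and the corepressor Ncor1 (0.84, 0.00511) were among the rises. The Hsp90 cochaperone Ptges3 (-0.71, 0.00342) was among the falls. In DSS ovaries 7 of 23 rose and 1 fell, beside 21.4% of all genes called. The 4 smallest p-values were those of Ptges3 (-0.81, adjusted p = 0.00206), Ep300 (1.04, 0.00253), Ncoa1 (0.87, 0.00410) and Ncor1 (0.86, 0.00420).

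Targets of the progesterone receptor gave 13 tested genes, with 0 called for DSS at either day (2 and 3 at an unadjusted p under 0.05). Adamts1, a protease of the ovulating follicle, stood at 3.43 FPKM in DSS against 8.23 in control at day 7 (-0.98, adjusted p = 0.155), every DSS library being lower, and the kinase Prkg2 gave -0.39 (0.269). At day 89 the endothelin Edn2 stood at 0.658 against 3.12 FPKM (-1.22) and Prkg2 at 0.178 against 0.773 (-0.60), with an adjusted p of 0.924 for both and no overlap of libraries. In control ovaries 2 of 13 rose between the days, beside 31.8% of all genes called: Adamts1 (1.42, adjusted p = 0.00512) and the cofactor Cited2 (0.98, 0.0217). In DSS ovaries 2 of 13 rose, beside 21.4% of all genes called: Adamts1 (1.48, adjusted p = 0.00402) and the nuclear receptor Pparg (0.87, 0.0210).

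Partners and targets of Nr5a1 and Nr5a2 made up 21 tested genes. None was called for DSS at day 7, where 12 of the 21 had an unadjusted p under 0.05 beside 16% of all genes. These differences had no common direction, since 10 of the 21 had a log2 fold change above 0 and 11 below (median -0.02). None was called at day 89 either, where 0 had an unadjusted p under 0.05 beside 4.58% of all genes. Star, with the values given for the gonadotropin response, was first by p at day 7. First at day 89 were the beta catenin gene Ctnnb1 (-0.50) and the granulosa factor Foxl2 (0.23, adjusted p = 0.924 for both). Between the days 4 of 21 rose and 1 fell in control ovaries, beside 31.8% of all genes called. The rises were Por (1.27, adjusted p = 0.00362), which passes electrons to steroidogenic enzymes, Ctnnb1 (1.34, 0.00446), Sp1 (0.80, 0.00693) and Gata6 (0.64, 0.0217). In DSS ovaries 7 of 21 rose and 1 fell, beside 21.4% of all genes called. Scarb1 (2.08, adjusted p = 0.00237), Star (2.27, 0.00319) and Por (1.00, 0.0107) were among the rises. Nr5a1 and Nr5a2 themselves differed by -0.02 between the days in DSS ovaries (adjusted p = 0.947 and 0.953).

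No gene of these 8 lists was called for the difference between the DSS effects of both days. First by p were Adcy3 (-0.85, adjusted p = 0.528) and Gnas (-0.77, 0.613) for cyclic AMP signalling, and Star (1.61, 0.554) and Tnfaip6 (-0.52, 0.655) for the gonadotropin response. For prolactin signalling they were Jak2 (-0.46, adjusted p = 0.578) and Src (-0.39, 0.613), and for prostaglandin F Gna11 (-0.47, 0.572) and Abcc4 (-0.62, 0.574). Among the remaining lists they were Paqr7 (0.44, adjusted p = 0.564), Rarg (0.46, 0.622), Hsp90aa1 (-0.42, 0.674), Fkbp4 (0.32, 0.705), Pparg (0.69, 0.631), Edn2 (-0.72, 0.640) and Foxl2 (0.58, 0.528). voom called 0 genes of any list for DSS at day 7, for DSS at day 89 and for this difference. In each list the counts between the days stand beside backgrounds of 31.8% in control and 21.4% in DSS ovaries. The counts at an unadjusted p under 0.05 for DSS stand beside 16% of all genes at day 7 and 4.58% at day 89. Between 0 and 8 members of each list passed in control ovaries and between 2 and 8 in DSS ovaries. Some genes, such as Star and Cyp11a1, are in more than 1 list.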

How the data were processed

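The authors deposited FPKM values, 1 column per library, with a gene length for each gene. HISAT2 2.0.5 and GRCm38 were used, per the submitters' processing notes, and the TruSeq kit was named per the labels' protocols. Not given in the sources used here are the counter, the annotation release and the handling of strand. The product of FPKM and gene length was a whole multiple (within 0.01) of a step particular to the column for 100% of values below 300 steps, which gave reads per gene and library. The total that the FPKM imply was 0.852 to 1.07 times the recovered reads of a library. It was lowest in the mitochondria-rich libraries, at 0.935 in control 10, 0.913 in control 53 and 0.852 in DSS 75. All 14 columns were mapped by name. Deposited positions differed from GRCm38 for most genes (1435 of 52073 gene IDs had the same position), so positions come from GENCODE M21, while the deposited lengths of the 9 receptors equalled its exon lengths.

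Values were tested as log2(FPKM + 1) with limma 3.58.1 (limma-trend, R 4.3.3), 1 mean per group over all 14 libraries, for genes with at least 3 libraries at FPKM 0.5 or more, with Benjamini-Hochberg adjustment over 18006 genes and a threshold of 0.05. The 8 tested receptors were above the filter in all 14 libraries (lowest 1.99 FPKM, Esr1 in DSS 75), and Pgr reached at most 0.481 FPKM. A gene of the lists could pass the filter through 1 group alone. Fold changes on this scale understate the change of low genes. The receptors and the gene lists were chosen with earlier results of these data known. Of each of 8 pathway lists, called genes are named, at most 4 per comparison by smallest adjusted p, or else the 2 with the smallest p, and 1 gene that this rule names is not reported here. Profile likeness names the 2 nearest genes with a mean FPKM of at least 1, predicted genes left out. Ratios were compared by exact permutation. The pipeline was tested on simulated data. Alternatives covered pseudocount, filter, scaling, voom on recovered reads, mitochondrial share, gene length and each library left out.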

Additional observations from a re-analysis of the deposited data

How the results depend on the processing

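The rise of Lhcgr between the days in DSS ovaries kept its direction and its call under all 8 alternatives and without any 1 of its 8 libraries (log2 fold change 2.18 to 3.03). Receptors called there numbered 1 with no filter and with only the compared libraries, and 1 to 2 with a library left out. At day 7, 0 to 1 receptors were called with a library left out. With 3 or 4 libraries per group, and 11 to 76 reads for Pgr, small differences were not detectable, and the cause of the changes below was not tested.

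Genes called for DSS at day 7 numbered 2 with a pseudocount of 0.1, 0 with only the compared libraries, 1 with each library scaled to its own total, 0 with voom, 20 with a term for mitochondrial share, 915 without the mitochondria-rich libraries (which leaves 1 control) and 11 with the length trend removed. With a library left out they ran from 0 to 1221, at 41 without control 10 and 1221 without DSS 75. Leaving out DSS 75 keeps mitochondria-rich libraries in control alone. For DSS at day 89 they numbered 0 with a pseudocount of 0.1, 5 with no filter, and 0 with only the compared libraries, with voom, without the mitochondria-rich libraries and with the length trend removed, and 0 to 2 with a library left out. Between the days in control ovaries they numbered 3141 with the mitochondrial term and 3231 without the mitochondria-rich libraries, and 3695 (without control 53) to 6034 with a library left out. In DSS ovaries they ran from 2034 (without R29) to 4930, at 2061 without R78 and 2510 without 81. For the difference of the DSS effects they numbered 2 with no filter, 3 without the mitochondria-rich libraries, and 0 to 41 (without DSS 75).

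Some uncalled log2 fold changes changed sign, most of them near 0, but Fshr for the difference of the DSS effects went from 0.76 to -0.20 and Ptgfr from -0.13 to 1.28 without the mitochondria-rich libraries. Without those libraries Nr5a2 also gave 0.00071 and Esr1 0.18 for DSS at day 7, Esr2 0.51 between the days in control, Nr5a1 0.0063 between the days in DSS, and Nr5a2 -0.028 for the difference of effects. Scaled to the own total, Nr5a2 gave 0.0077 for DSS at day 89, Esr2 0.015 between the days in control, and Nr5a1 0.024 and Nr5a2 0.021 between the days in DSS. With the length trend removed Nr5a2 gave 0.016 for DSS at day 89, Esr1 -0.14 between the days in control and -0.14 in DSS, and 0.00083 for the difference.

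With a library left out the ranges that crossed 0 were, for DSS at day 7, -0.21 to 0.084 (Nr5a1) and -0.12 to 0.52 (Fshr). For DSS at day 89 they were -0.34 to 0.63 (Lhcgr), -0.39 to 0.039 (Esr1), -0.13 to 0.079 (Nr5a2) and -0.21 to 0.28 (Esr2). Between the days in control they were -0.37 to 0.14 (Esr2), -0.36 to 0.28 (Fshr) and -0.013 to 0.41 (Esr1), and in DSS -0.19 to 0.091 (Nr5a1) and -0.26 to 0.20 (Nr5a2). For the difference of effects they were -0.82 to 0.64 (Ptgfr), -0.018 to 0.45 (Nr5a2) and -0.27 to 0.16 (Esr1). The log2 ratio of Nr5a2 to Nr5a1 ran from -0.36 to 0.12 for DSS at day 7, and between the days from -0.064 to 0.29 in control and from -0.27 to 0.22 in DSS, while Lhcgr to Fshr between the days in DSS ran from 1.14 to 2.55. No replicate number recurs between groups. No paired analysis was possible because the groups compared share no replicate number.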
